A study of Rattus norvegicus with 20 samples.

Results

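Mesenteric arteries of untreated spontaneously hypertensive rats were compared with those of untreated Wistar-Kyoto rats, and 303 of 16424 genes differed. The members were chosen by sample title: 4 arrays of the SHR/Izm strain and 4 arrays of the WKY/Izm strain, both untreated, so 8 of the 20 arrays of the study. SHR is an inbred rat strain that develops hypertension with age, and WKY is the normotensive strain of related origin that is its usual control. All rats were labelled as 6 weeks old, and the untreated WKY rats had no operation over the 3 weeks of the protocol. The labels do not say whether 6 weeks was the age at the start of those weeks or at sampling, so whether SHR and untreated WKY were sampled at the same age is not settled. Whole mesenteric artery was the source of total RNA, each sample was labelled with Cy3 and read on a single-colour array of 60-mer probes, and the labels call the 4 arrays of a group biological replicates. The other 12 arrays hold stroke-prone SHR (SHRSP) and WKY rats with 1 of 2 renal artery clip operations (2K1C and 1K1C). No blood pressure was analysed here.

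Small mesenteric arteries set much of the resistance to blood flow in the gut. Their tone follows from smooth muscle contraction, endothelial nitric oxide and prostanoids, angiotensin II, endothelin and sympathetic nerves that release noradrenaline. In inherited hypertension of the rat, inbred strains also differ at many loci that have nothing to do with blood pressure, and a difference in probe signal between strains can arise from a difference in RNA level or from a sequence difference under the probe. These data do not tell these apart for a gene read by 1 probe.

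The probes of 7 genes that the comparison turns on are shown first, because each of these genes was read by a single detected probe. The sequences are those of the array files, from 5′ to 3′, with positions on the rat build rn4 from the array design. Probes of Gpr35 and Endog are given whole (60 bases) and the other 5 by their bases 1 to 30.
Afp: agcttttcggtttgatggtaactggtggag
Gpr35: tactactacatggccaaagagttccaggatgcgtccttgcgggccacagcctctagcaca
Tor1b: aagatctactcggacaagggctgcaagaca
Vegfb: aagccttcagtttgatcttcaccaaatgga
C4bpa: agtgccaagcagaacgtctgcatttttagc
Acot5: gtactgacccatcctaagaatagctgtacc
Endog: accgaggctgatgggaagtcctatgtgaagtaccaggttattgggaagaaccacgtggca
The Afp probe lies at chr14:19092583-19092642 on the minus strand and the Gpr35 probe at chr9:92259098-92259157 (plus). The Tor1b probe lies at chr3:10022777-10022836 (plus) and the Endog probe at chr3:9187223-9187282 (plus). The Vegfb probe lies at chr1:209657830-209657889 (minus), the C4bpa probe at chr13:43553086-43553145 (minus) and the Acot5 probe at chr6:108122671-108122730 (plus). Exon, intron and UTR annotation of rn4 was not used here.

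Each level below is a log2 signal with the 75th percentile of its array subtracted, so 0 is that percentile and a step of 1 is a doubling of signal. Differences are SHR minus untreated WKY on the same scale with their SE, and levels carry the SD of 4 arrays. The threshold for calling a gene was 0.05 on the adjusted p of limma (Benjamini-Hochberg over all genes) in a fit of all 20 arrays. The labelled tissue fitted its markers: of 17 contractile smooth muscle genes 16 were measured, and Myh11, the smooth muscle myosin heavy chain, averaged 6.15 ± 0.82 in SHR and 5.77 ± 0.55 in untreated WKY. Arrays of a group correlated over all tested genes at 0.962 to 0.995 in SHR and 0.951 to 0.991 in untreated WKY. The share of spots well above background was 66.5 to 71.6% on the SHR arrays and 68.6 to 70.6% on the untreated WKY arrays.

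Within both groups some arrays stood apart by the signal of cell type markers. Msln, which encodes mesothelin of the peritoneal lining, read 3.27, -3.19, -3.91 and -4.39 in SHR replicates 1 to 4, against -2.91, 2.69, 1.46 and -2.59 in untreated WKY replicates 1 to 4. Of the other mesothelial markers, Upk1b, Wt1, Krt19, Krt7 and Krt8 were likewise highest on SHR replicate 1 and on untreated WKY replicates 2 and 3. Krt18 and Gpm6a did not follow. Among SHR arrays Krt18 was lowest on replicate 1 (-0.71), and among untreated WKY arrays Gpm6a was lowest on replicate 3 (-2.73). The summed signal of the 8 measured mesothelial markers was 3.99 on SHR replicate 1 and 0.51 to 0.75 on the other 3 SHR arrays, against 3.67 and 2.61 on untreated WKY replicates 2 and 3 and 0.42 and -0.13 on replicates 1 and 4. The same 3 arrays had the highest summed signal of the 14 white adipocyte markers, 9.68 on SHR replicate 1 and 9.40 and 9.35 on untreated WKY replicates 2 and 3, and the lowest of the 13 Schwann cell markers (5.53, 5.42 and 5.01). Contractile smooth muscle was lowest on SHR replicate 1, at 7.61 against 9.33 to 9.80 on the other SHR arrays and 8.33 to 9.55 on untreated WKY arrays. Results are therefore given with all 8 arrays and, for leading genes and members of gene lists whose call it ends, without these 3 arrays, a choice made after the data were seen. Leaving these 3 out keeps SHR replicates 2, 3 and 4 and untreated WKY replicates 1 and 4. With fewer arrays a call can be lost while the difference stays. In whole tissue, fewer cells of a type and less RNA per cell cannot be told apart.

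**Figure D1:**
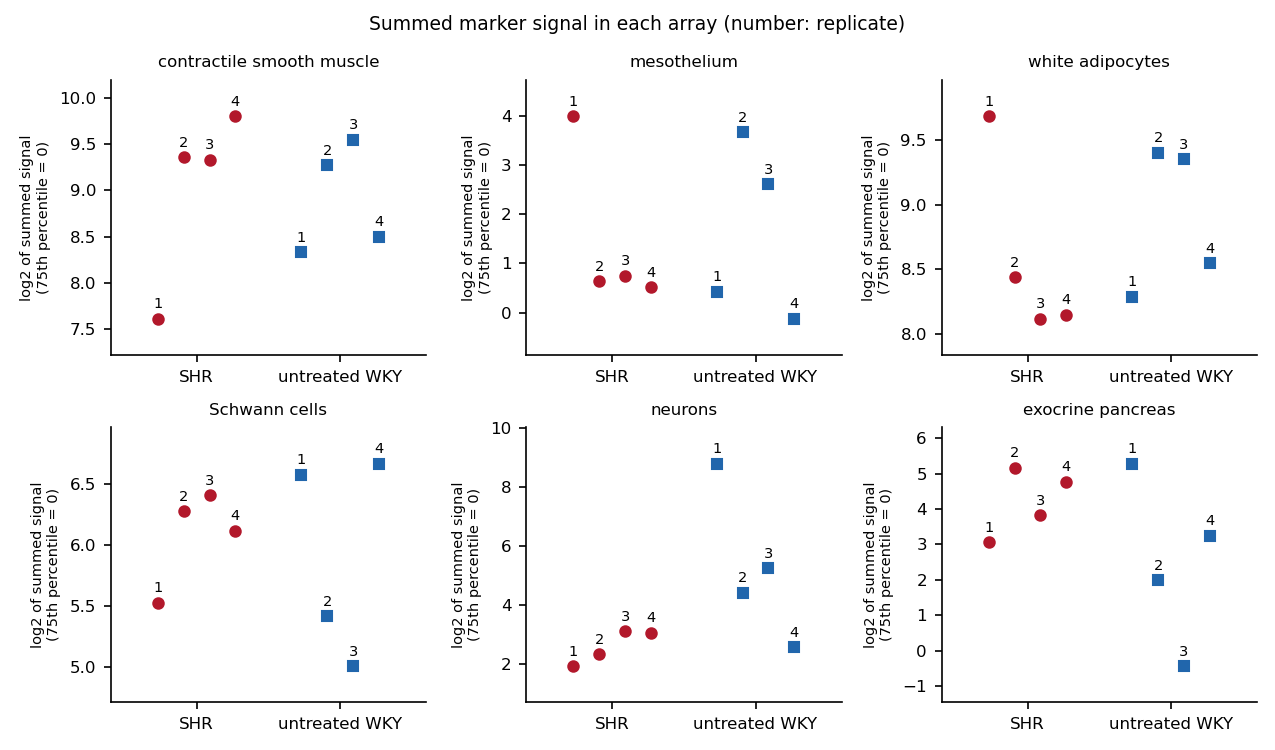
Log2 of the summed signal of 6 marker lists in each array, SHR on the left and untreated WKY on the right of each panel, with the replicate number over each point and the array's 75th percentile at 0. SHR replicate 1 and untreated WKY replicates 2 and 3 have mesothelial sums of 2.61 to 3.99, and the other 5 arrays lie between -0.13 and 0.75.

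SHR lay on slide 3 with SHRSP, and untreated WKY on slide 2 with 1K1C, so slide and group cannot be told apart in this comparison. The level in SHRSP, which shared the slide with SHR, is given beside the leading genes for that reason. SHRSP is a stroke-prone form of SHR, so for a level that both share, slide and strain cannot be told apart either. Leading genes here are those with a gene symbol that had the largest differences among genes called with all arrays and in each fit without 1 array, with groups that did not overlap and the brighter group detected.

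The 303 called genes were 1.84% of the 16424 tested. In SHR 137 rose (0.834%) and 166 fell (1.01%), and 2294 genes had an unadjusted p under 0.05. The lower genes moved further, with a median size of 1.54 against 1.16 for the higher genes. There were 58 lower and 21 higher genes with a difference of at least 2. The split depended on the scaling: 45.2% of the called genes were higher with the 75th percentile, 60.3% with quantile normalization, 59.7% with normexp and quantile normalization, 65.2% with the array median and 60.4% from the deposited value table. With the array median the middle of all genes itself moved to 0.12, against 0.018. All 4 SHR values lay outside the range of the 4 untreated WKY values for 275 of the called genes, where the share over all tested genes was 6.14%. For 144 of them, 63 higher and 81 lower, SHR lay outside all 12 WKY arrays, operated or not, against 1.41% of all tested genes. Called genes were chosen on the same SHR and untreated WKY values, so the call itself raises both counts.

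**Figure D2:**
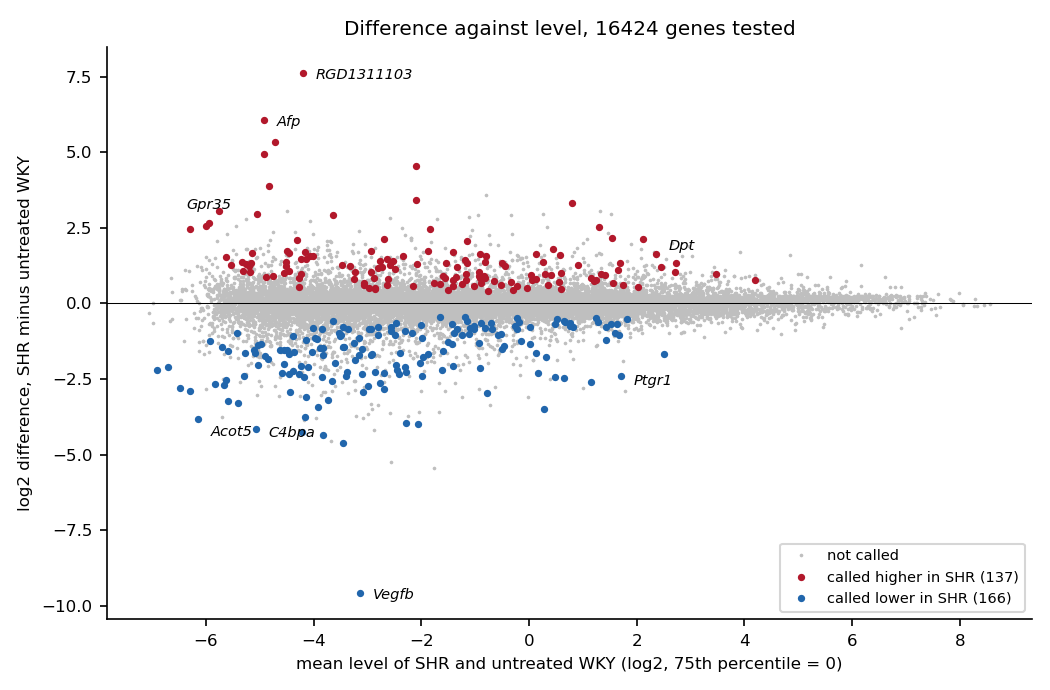
Difference of each tested gene (vertical axis, log2, SHR minus untreated WKY) against its mean level over both groups (horizontal axis, log2, the array's 75th percentile at 0). The 137 genes called higher and 166 called lower in SHR are coloured, and Vegfb lies alone at -9.59 and RGD1311103 at 7.63.

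The leading genes that rose in SHR included secreted and membrane proteins at a wide range of levels. Afp, the fetal plasma protein alpha-fetoprotein, read -0.46, -2.09, -2.57 and -2.40 in the 4 SHR arrays, against -7.87, -7.79, -8.03 and -8.14 in untreated WKY. The groups lay far apart, no WKY array was well above background, and SHR replicate 1 was the highest. SHRSP stood at -1.62 ± 0.51. Its neighbour on chromosome 14, Alb, which encodes serum albumin, averaged 2.63 ± 1.19 in SHR and 0.45 ± 0.48 in untreated WKY, a difference of 2.18 ± 0.54 (adjusted p = 0.0468). Alb was called in 1 of the 8 fits that left out an array, whereas Afp was called in all 8.

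Gpr35, a G protein-coupled receptor that responds to kynurenic acid, read -3.67, -3.25, -3.13 and -4.17 in SHR, against -6.08, -7.36, -6.42 and -6.26 in untreated WKY. The groups did not overlap and no untreated WKY array was well above background, while all 4 SHR arrays and all 4 SHRSP arrays were, and SHRSP stood at -3.42 ± 0.17. Lilrb3l, of the leukocyte immunoglobulin-like receptor family, read -1.46, -3.19, -3.25 and -3.59 in SHR, against -7.47, -6.14, -6.43 and -7.05 in untreated WKY. Its rise was at least 7.63-fold (adjusted p = 7.01e-05) with no overlap. SHRSP, on the same slide as SHR, stood at -6.84 ± 0.33 with 0 of 4 arrays well above background. Here and below, "at least" divides the mean of the brighter group by a detection limit for the dimmer one. That limit is, on each array, the weakest signal of any probe that was well above background, replaced by the signal of the probe in question if this was stronger.

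Tor1b, a torsin ATPase of the endoplasmic reticulum and nuclear envelope, was the most even of the leading genes. It read -2.12, -2.04, -2.03 and -2.05 in SHR, against -3.73, -4.02, -3.79 and -3.66 in untreated WKY. The difference of 1.75 ± 0.14 (3.35-fold, adjusted p = 4.84e-07) was many times the spread of either group. SHRSP stood at -2.15 ± 0.052, and the operated WKY groups at -3.63 ± 0.17 (1K1C) and -3.65 ± 0.31 (2K1C).

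Dpt, which encodes the matrix protein dermatopontin, read 3.06, 3.04, 3.20 and 3.36 in SHR, against 1.32, 1.92, 1.58 and 1.34 in untreated WKY. The groups were separate, and the difference was 1.63 ± 0.24 (adjusted p = 0.000785), with SHRSP at 2.82 ± 0.53. Depp1, a target of FoxO transcription factors, read 0.99, 1.22, 1.43 and 1.74 in SHR and -0.48, -0.56, -0.51 and -0.31 in untreated WKY. Its rise of 1.81 ± 0.31 (adjusted p = 0.00345) had no counterpart in the SHRSP level of -0.40 ± 0.79. Without the 3 arrays of mesothelial signal the rise was 1.86 ± 0.42 (adjusted p = 0.0681). Itm2c, an integral membrane protein, averaged -0.018 ± 0.17 in SHR and -1.59 ± 0.26 in untreated WKY, with -0.15 ± 0.32 in SHRSP.

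Among the leading higher genes were 3 with a part in cell division. Mcm7, a subunit of the replicative helicase, averaged 0.94 ± 0.20 in SHR and -0.68 ± 0.22 in untreated WKY (1.62 ± 0.22, adjusted p = 0.000327). Kif15, a mitotic kinesin, averaged -3.22 ± 0.27 and Cep295, a centriole protein, -3.26 ± 0.26 in SHR, against -4.78 ± 0.46 for Kif15 and -5.37 ± 0.57 for Cep295 in untreated WKY. SHRSP averaged 1.04 ± 0.18 for Mcm7, -2.99 ± 0.17 for Kif15 and -2.98 ± 0.33 for Cep295. None of the 28 measured genes of the fixed cell cycle list was called, and the median difference of that list was -0.029, with 11 of 28 above 0. The sign of that median changed under other scalings, to 0.037 with quantile normalization and 0.074 with the array median. Without the 3 arrays of mesothelial signal Kif15 differed by 1.56 ± 0.35 (adjusted p = 0.0615). Rpl10l, an intronless relative of ribosomal protein L10, averaged -0.11 ± 0.49 in SHR and -2.18 ± 0.37 in untreated WKY, with -0.97 ± 0.38 in SHRSP, between both groups. Its 2 detected probes may share target with RNA of that family.

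The leading genes that fell in SHR included a growth factor, a complement regulator, receptors and enzymes of lipid metabolism. Vegfb, a ligand of vascular endothelial growth factor receptor 1, read -7.74, -8.29, -8.13 and -7.56 in SHR, against 0.85, 2.27, 2.25 and 1.27 in untreated WKY. No SHR array was well above background and every WKY array was, with the fall at least 199-fold (-9.59 ± 0.35, adjusted p = 9.41e-12). SHRSP, on the same slide as SHR, stood at 1.13 ± 0.32 with all 4 arrays well above background. The other 9 measured VEGF ligands and receptors were not called, and ranged up to 0.92 for Flt4, the receptor of lymphatic endothelium, which averaged -0.79 ± 0.83 in SHR and -1.71 ± 0.53 in untreated WKY (adjusted p = 0.366).

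C4bpa encodes the alpha chain of C4b-binding protein, an inhibitor of complement. It read -5.64, -8.20, -6.99 and -7.77 in SHR, against -3.83, -2.10, -2.66 and -3.39 in untreated WKY. The groups did not overlap, and 1 SHR array was well above background. It was the 1 called gene among 22 measured complement genes, against 1.84% of all genes, and the median difference of these 22 was -0.14. SHRSP averaged -6.45 ± 1.73 and ranged from -8.15 to -4.82, with 2 of 4 arrays well above background.

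Acot5, a peroxisomal acyl-CoA thioesterase in the mouse, read -7.97, -8.39, -8.23 and -7.67 in SHR, against -4.65, -4.19, -3.84 and -4.24 in untreated WKY. No SHR or SHRSP array was well above background, and every untreated WKY array was. Its neighbour Acot3, 28.4 kb away in the same thioesterase cluster on chromosome 6, went the other way by 0.69 ± 0.17 (adjusted p = 0.0447), at -2.73 ± 0.15 in SHR and -3.42 ± 0.19 in untreated WKY. The Acot3 call was kept in 1 of the 8 fits without an array. It was lost without the 3 arrays of mesothelial signal (0.586 ± 0.235, adjusted p = 0.333). Genes of this cluster are close in sequence, so the probes may share target.

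Endog, a mitochondrial nuclease proposed before as a gene of cardiac mass in SHR, read -1.81, -1.96, -2.41 and -1.72 in SHR, against 0.30, 0.23, 0.31 and -0.22 in untreated WKY. The groups were separate and SHRSP stood with SHR at -1.96 ± 0.19. Ptgr1, which inactivates leukotriene B4 and prostaglandins, read 1.20, 0.13, 0.13 and 0.56 in SHR, against 2.69, 3.12, 3.16 and 2.68 in untreated WKY. Its fall of 2.41 ± 0.23 on the log2 scale, a level 5.32-fold higher in WKY, was seen in every SHR array (adjusted p = 4.52e-06), and SHRSP stood at 0.65 ± 0.33.

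Pde9a, a phosphodiesterase specific for cGMP, read -3.01, -3.13, -3.13 and -2.78 in SHR, against -0.81, -1.08, -0.63 and -1.60 in untreated WKY. The groups did not overlap (-1.98 ± 0.19, adjusted p = 7.97e-06), and SHRSP stood at -2.47 ± 0.14. Every untreated WKY array was also above every operated WKY array, which averaged -2.12 ± 0.37 (1K1C) and -1.89 ± 0.12 (2K1C). Frmd3, a FERM domain protein, and Galr2, a receptor of the neuropeptide galanin, also averaged less in operated WKY than in untreated WKY: Frmd3 averaged -5.89 ± 0.35 in SHR and -2.98 ± 1.18 in untreated WKY, with -6.54 ± 1.04 in 1K1C, and Galr2 averaged -4.12 ± 0.26 in SHR and -1.27 ± 1.20 in untreated WKY, with -2.91 ± 0.34 in 1K1C. SHRSP averaged -6.29 ± 0.52 for Frmd3 and -4.09 ± 0.20 for Galr2. Frmd3 was not called without the 3 arrays of mesothelial signal (-2.42 ± 0.71, adjusted p = 0.173). Pde9a, Frmd3 and Galr2 were all lowest on replicate 4 among untreated WKY arrays, at -4.56 for Frmd3 and -2.85 for Galr2. The summed signal of the 14 neuron markers was lowest there too, at 8.78, 4.41, 5.23 and 2.56 on untreated WKY replicates 1 to 4. That sum was highest on replicate 1, as was Frmd3 (-2.05), while Pde9a (-0.63) and Galr2 (-0.049) were highest on replicate 3. The part of nerve tissue in these genes was not tested.

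Sctr, the secretin receptor, averaged -7.22 ± 1.00 in SHR and -3.98 ± 0.87 in untreated WKY, a fall of at least 3.90-fold (adjusted p = 0.00292), with SHRSP at -7.26 ± 0.73. Its level in 2K1C was -6.23 ± 0.46 with 0 of 4 arrays well above background, so SHR was not outside all WKY arrays for this gene. Rhd, an erythroid membrane protein of the Rh family, Serhl2, a serine hydrolase-like enzyme, and Pxmp4, a peroxisomal membrane protein, were low in SHR and stood nearer untreated WKY in SHRSP. Rhd averaged -5.07 ± 0.28 in SHR and -2.62 ± 0.30 in untreated WKY, with -3.16 ± 0.78 in SHRSP. It was not called without the 3 arrays of mesothelial signal (-2.29 ± 0.50, adjusted p = 0.0529). Serhl2 averaged -4.52 ± 0.38 in SHR and -2.25 ± 0.47 in untreated WKY, with -2.67 ± 0.45 in SHRSP. Pxmp4 averaged -2.72 ± 0.46 in SHR and -0.53 ± 0.29 in untreated WKY, with -0.86 ± 0.20 in SHRSP. The differences between SHR and SHRSP were not tested here. Erythroid markers were low in SHR beside Rhd: all 7 measured were below 0, with a median of -0.80 and none called, and their summed signal was 7.89 to 8.89 in SHR and 8.55 to 9.27 in untreated WKY. Their part in the Rhd result was not tested.

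**Figure D3:**
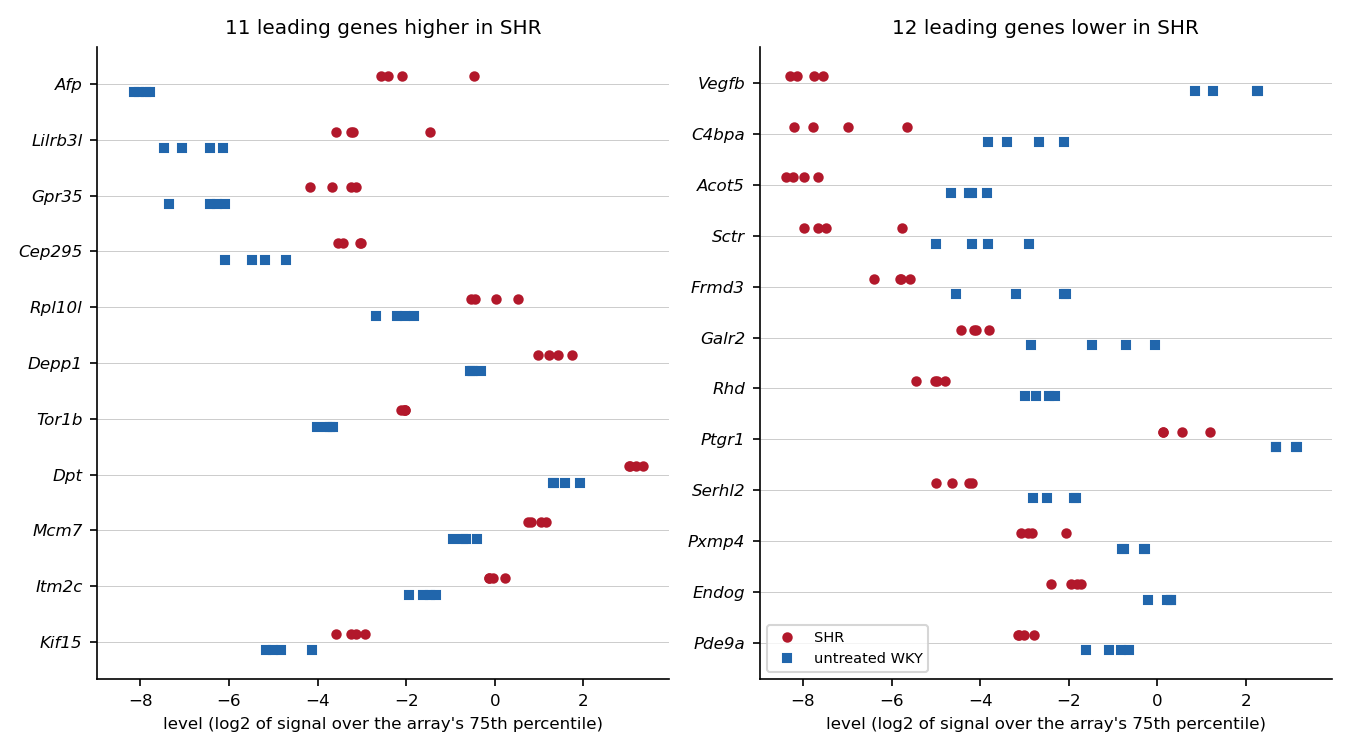
Level of 11 leading genes higher and 12 leading genes lower in SHR, 1 point per array (SHR circles, drawn above; untreated WKY squares, drawn below), as log2 of signal over the array's 75th percentile. In every row the SHR points lie outside the range of the untreated WKY points, and Vegfb has the widest gap.

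Some genes were detected in SHR or untreated WKY and not in the other group. Of 20 tested genes with no SHR array and all 4 untreated WKY arrays well above background, 11 were called, with Vegfb, Acot5 and Sctr among them. Of 22 with the reverse pattern 12 were called, with Afp, Gpr35 and Lilrb3l among them. Over all tested genes 1.84% were called. Detection and calls rest on the same SHR and untreated WKY values, so the selection itself raises both counts. The others named from these sets were chosen after their values were seen. RGD1311103, an unnamed gene on chromosome 8 (probe at chr8:83342357-83342416, minus strand), read -0.85, 0.24, -0.073 and -0.84 in SHR, against -7.92, -7.84, -8.08 and -8.20 in untreated WKY. This was a rise of at least 43.0-fold (7.63 ± 0.36, adjusted p = 4.26e-10) with groups far apart. A probe 0.1 kb away, annotated as a separate transcript, rose too, at least 13.6-fold (5.35 ± 0.30, adjusted p = 3.83e-09). In SHRSP both probes were well above background on 4 of 4 arrays, and in 1K1C and 2K1C on none.

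LOC502684 on chromosome 3 read -3.60, -2.20, -2.18 and -1.82 in SHR, against -6.31, -6.95, -8.08 and -8.19 in untreated WKY, a rise of at least 10.2-fold with 4 of 4 SHRSP arrays well above background. RGD1560137 on chromosome 15 rose at least 2.30-fold (2.68 ± 0.39, adjusted p = 0.000784), with 0 of 4 SHRSP arrays well above background. These unnamed genes met the criteria of the leading genes other than the gene symbol. Maff, a small bZIP transcription factor, rose at least 2.11-fold (1.38 ± 0.32, adjusted p = 0.0374), and Ankrd35, an ankyrin repeat protein, at least 2.31-fold (1.33 ± 0.27, adjusted p = 0.0153). Maff kept its call in 3 of the 8 fits without an array and Ankrd35 in 6.

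On the other side, Ccl12, a chemokine for monocytes in the mouse, read -6.51, -7.89, -7.68 and -6.13 in SHR, against -3.76, -4.59, -4.39 and -2.24 in untreated WKY, a fall of at least 4.71-fold (adjusted p = 0.0122) that was called in 6 of the 8 fits without an array. SHR was outside all 12 WKY arrays for Ccl12. Baat, the liver enzyme that joins bile acids to amino acids, fell at least 3.72-fold (-2.42 ± 0.55, adjusted p = 0.0338). Nr1i3, the nuclear receptor CAR, fell at least 2.26-fold (-1.57 ± 0.37, adjusted p = 0.0389). Baat kept its call in 4 of the 8 fits and Nr1i3 in 2. Iqsec3, an exchange factor of neurons, read -5.91, -5.83, -6.13 and -6.24 in SHR, against -0.54, -2.02, -1.12 and -5.46 in untreated WKY. Its groups were barely apart because untreated WKY replicate 4 was near SHR, and its call was kept in 2 of the 8 fits.

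Among 41 called genes with another detected probe, 43 further probes could be read. Of these, 39 differed in the same direction and 15 were called in the same direction. LOC360919, which lies 99.7 kb from Afp, had 2 probes that both fell in SHR, by 3.08 ± 0.41 and 4.23 ± 0.42 on the log2 scale, while Afp rose. The creatine synthesis enzyme gene Gatm fell by 1.70 and 1.84. Lsr, a lipoprotein receptor of tight junctions, rose by 1.36 and 1.41, Ints7, a subunit of the Integrator complex, by 1.27 and 1.43, and Rpl10l by 2.08 and 1.88. Probes went apart for Sez6 (-1.69 and -0.11), Yipf4 (1.01 and -0.076), Cyb561d1 (1.01 and 0.13) and Slc39a1 (0.54 and -0.026). The genes of this paragraph were named after their values were seen.

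Called genes lay near one another on rn4 more often than other genes did. Of 278 called genes with a position, 133 (47.84%) had another called gene within 1 Mb, against 26.7% of 15281 genes that were not called, and 3.25% of the neighbours of called genes were called against 1.78% for the others. This is a description with no test, and the genes named from it were chosen after their values were seen. In 18 pairs 2 called genes were next to each other with no tested gene between them, 12 in the same direction and 6 in opposite directions. Some pairs may be 1 transcript under 2 names, such as RGD1311103 and the probe 0.1 kb away, or a pair on chromosome 10 whose probes overlap. Such pairs also count in the shares above. Mak16 and Tti2 on chromosome 16, 3.5 kb apart, rose by 0.92 ± 0.12 and 0.57 ± 0.12. The fatty acid hydroxylase genes Cyp4f17 and Cyp4f5 on chromosome 7 were opposite, at -1.65 ± 0.15 (adjusted p = 3.91e-06) and 0.60 ± 0.15 (adjusted p = 0.0454). Without 1 array Tti2 kept its call in 3 of the 8 fits and Cyp4f5 in 2. Gstt3 and Gstt1 on chromosome 20, 9.9 kb apart, both rose. Probes of such close relatives, like those of the Lilrb3l family, may share target. The share called was highest on chromosomes 16 (3.35%) and 11 (3.34%) and lowest on chromosome 12 (0.633%).

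The lists of vascular tone genes are short. At the share called over all genes, such lists would hold few calls or none, so the counts below do not set these genes apart. None of the 13 measured renin-angiotensin genes was called, against 1.84% of all genes, and their median was -0.096, with 5 of 13 above 0 and a change of sign to 0.0074 under scaling to the array median. Agt, the angiotensinogen gene, read 6.01, 4.39, 4.17 and 3.94 in SHR, against 4.25, 5.91, 5.79 and 5.15 in untreated WKY, where the highest value of each group came from the arrays with mesothelial and adipocyte signal. Ace, the converting enzyme gene, differed by 0.77 ± 0.30 (adjusted p = 0.239) and the angiotensin receptor genes Agtr1a by -0.40 ± 0.24 (adjusted p = 0.485) and Agtr1b by 1.44 ± 0.55 (adjusted p = 0.228).

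Of the endothelin genes, Edn1, the ligand, averaged -4.14 ± 0.20 in SHR and -4.07 ± 0.45 in untreated WKY, and Ednra, the receptor of smooth muscle, differed by 0.82 ± 0.41 (adjusted p = 0.389). The 16 measured genes of nitric oxide and cGMP signalling had a median of 0.45, 11 above 0 and none called. Nos3, the endothelial nitric oxide synthase gene, read -0.39, 0.072, 0.10 and 0.39 in SHR, against -1.12, -1.13, -1.35 and -0.12 in untreated WKY. The groups overlapped through untreated WKY replicate 4, and the difference of 0.97 ± 0.33 missed the threshold (adjusted p = 0.164). The 16 measured endothelial markers, which include Nos3, also had a median of 0.45, with 13 above 0 and none called, and their summed signal was 5.36 to 5.54 in SHR and 4.64 to 5.64 in untreated WKY. Their part in the Nos3 value was not tested.

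Prostanoid and epoxide genes were not called in 20 measured. Ptgs2, the inducible cyclooxygenase gene, read -5.96, -3.07, -3.30 and -4.42 in SHR, against -6.08, -5.45, -5.53 and -6.96 in untreated WKY, and SHR replicate 1 lay within the WKY range. No untreated WKY array and 3 of 4 SHR arrays were well above background. The SHR mean was 2.81-fold above the detection limit of untreated WKY, and the difference was not called (adjusted p = 0.172). That mean includes replicate 1, so the fold is not a minimum for every SHR array. The adjusted p was 0.0333 without SHR replicate 1 and 0.0834 without the 3 arrays of mesothelial signal. Among 26 measured calcium and potassium channel genes none was called. Kcna5, a voltage-gated potassium channel gene, read -3.57, -1.38, -1.54 and -1.36 in SHR, against -3.18, -6.08, -5.60 and -2.53 in untreated WKY. The lowest values of each group were those of the 3 arrays with mesothelial signal, and without them the difference was 1.43 ± 0.97 (adjusted p = 0.606). Eln, the elastin gene, followed the same arrays, at 3.95, 5.91, 6.08 and 6.64 in SHR and 5.84, 2.80, 2.70 and 4.81 in untreated WKY (1.61 ± 0.85, adjusted p = 0.412). The 26 measured matrix genes had a median of 0.47 with 23 above 0 and none called.

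**Figure D4:**
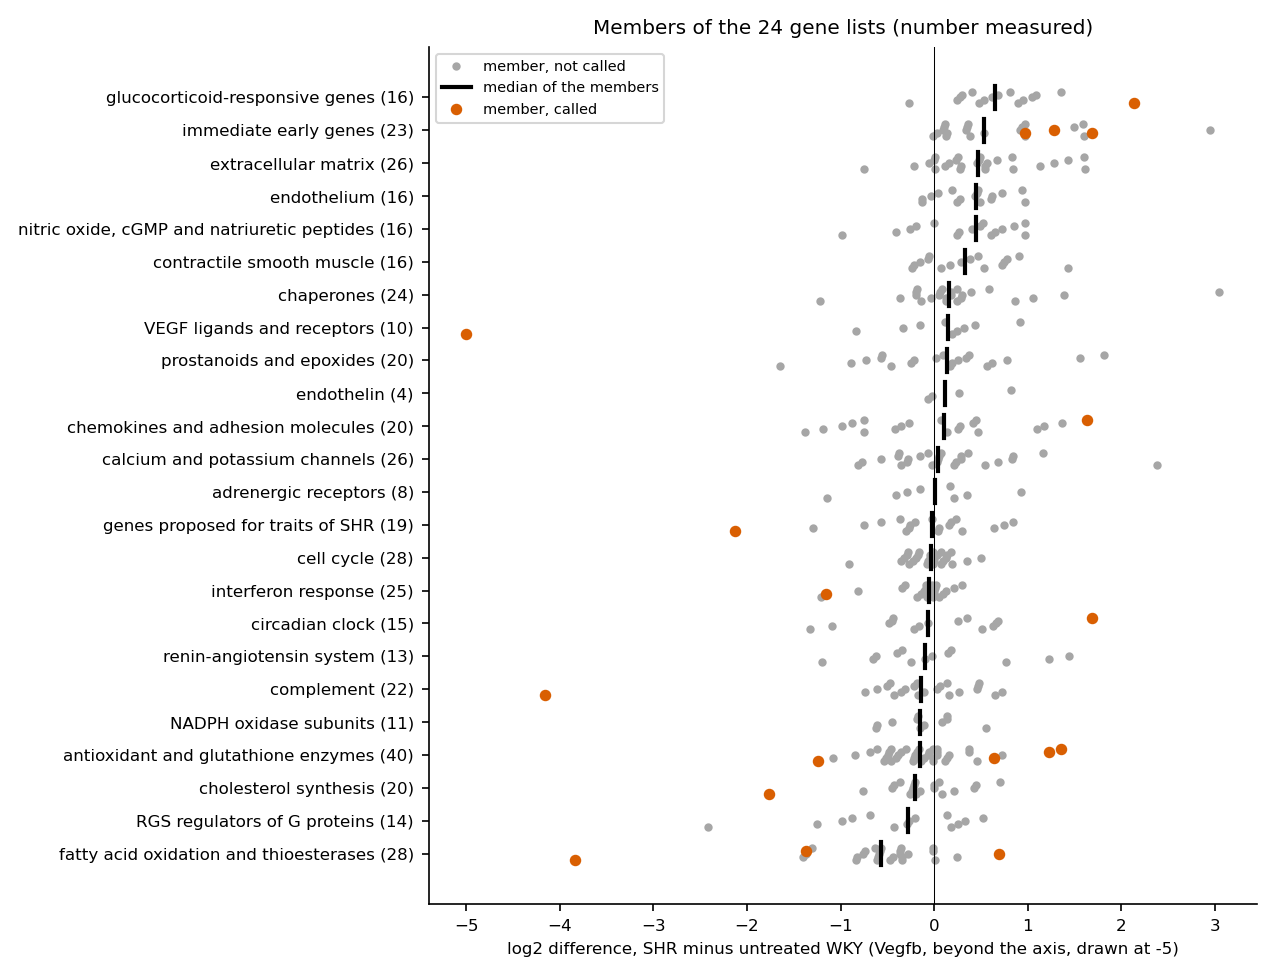
Differences (log2, SHR minus untreated WKY) of the measured members of 24 gene lists, 1 point per gene, with called genes in orange, a bar at each median, and Vegfb (-9.59) drawn at -5 at the edge of the axis. The list medians run from -0.57 for fatty acid oxidation to 0.65 for glucocorticoid-responsive genes, and no list has more than 4 called members.

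Immediate early genes, which stimulation induces quickly, gave 3 calls among 23 measured, all higher. Over all tested genes 0.834% were called higher and 1.84% in either direction, the shares to set beside this and the following lists. Their median was 0.54 against 0.018 for all genes, and 22 of 23 were above 0, as were 52.58% of all genes. Zfp36, which destabilises cytokine mRNAs, read -4.47, -4.17, -4.27 and -4.27 in SHR, against -6.65, -5.70, -6.22 and -5.36 in untreated WKY. Btg2, an antiproliferative gene, read 1.26, 2.21, 1.51 and 1.25 in SHR, against 0.11, 0.36, 0.030 and 0.62 in untreated WKY, and Klf2, a shear-responsive factor of endothelium, -0.96, -0.51, -0.36 and -0.88 in SHR, against -1.80, -1.51, -1.80 and -1.47 in untreated WKY. The groups of all 3 were separate. The 3 calls depended on which arrays were kept: Zfp36 kept its call in 3 of the 8 fits without an array, Btg2 in 3 and Klf2 in 2, and none of the 23 was called without the 3 arrays of mesothelial signal, where the median was 0.67.

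Of the 16 measured glucocorticoid-responsive genes 15 were above 0, with a median of 0.65 and 1 called. That gene, Errfi1, an inhibitor of the epidermal growth factor receptor, read 2.04, 3.43, 3.79 and 3.49 in SHR, against 1.35, 0.89, 0.32 and 1.62 in untreated WKY, with no overlap (2.14 ± 0.42, adjusted p = 0.0139). It kept its call in 4 of the 8 fits, and without the 3 arrays its difference was 2.08 ± 0.45 (adjusted p = 0.0544). Nfil3, a repressor of clock output genes, was the 1 called gene of 15 clock genes: it read -0.94, -0.46, -0.40 and -0.48 in SHR, against -1.95, -2.58, -2.85 and -1.67 in untreated WKY. The rise was 1.69 ± 0.33 (adjusted p = 0.0122). It kept its call in 7 of 8 fits, and lost it without the 3 arrays (1.36 ± 0.40, adjusted p = 0.169). Hspa1b, an inducible Hsp70 gene, read 0.59, 3.77, 4.15 and 2.88 in SHR, against 1.90, -1.17, -0.74 and -0.78 in untreated WKY, where 1 array of each group was at odds with the others (3.05 ± 0.86, adjusted p = 0.0849).

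Of 28 measured genes of fatty acid oxidation and thioesterases 2 were called lower and 1, Acot3, higher, against 1.01% and 0.834% of all genes. Their median was -0.57 against 0.018 for all genes, and 25 were below 0. Beside Acot5, the coactivator gene Ppargc1a, a regulator of mitochondrial genes, was called: it read -5.67, -5.23, -5.78 and -6.22 in SHR, against -4.88, -4.15, -3.45 and -4.94 in untreated WKY (-1.37 ± 0.32, adjusted p = 0.0351). Its groups were just apart and only 1 SHR array was well above background. It kept its call in 4 of the 8 fits, and without the 3 arrays of mesothelial signal its difference was -0.83 ± 0.34 (adjusted p = 0.342). The list had 7 genes called lower and a median of -0.83 without SHR replicate 1, and 1 called lower and a median of -0.62 without the 3 arrays. All 7 measured brown adipocyte markers were below 0, with a median of -0.86 and summed signals of 3.49 to 5.17 in SHR and 4.14 to 7.58 in untreated WKY, the top value on replicate 1. Ppargc1a stands in both lists, and the part of brown adipocytes was not tested. Cd36, a fatty acid transporter gene proposed for metabolic traits of SHR, read 5.95, 5.04, 4.73 and 4.26 in SHR, against 4.61, 5.83, 5.70 and 5.28 in untreated WKY, with overlap (adjusted p = 0.669).

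Of 40 measured antioxidant and glutathione genes 3 were called higher and 1 lower, against 0.834% and 1.01% of all genes, and the median was -0.15. Gstt3, a theta class glutathione transferase gene, read 0.43, -0.36, -0.29 and -0.31 in SHR, against -1.12, -1.71, -2.16 and -0.96 in untreated WKY, and a second probe of it differed by 1.31 ± 0.30. Gstt1 of the same class read 1.23, -0.26, -0.32 and -0.012 in SHR, against -1.41, -0.83, -1.08 and -0.94 in untreated WKY. Both were separate from all 12 WKY arrays. Neither was called without the 3 arrays of mesothelial signal, at 0.72 ± 0.27 for Gstt3 (adjusted p = 0.299) and 0.975 ± 0.255 for Gstt1 (adjusted p = 0.119). Srxn1, which repairs peroxiredoxins, fell by 1.25 ± 0.26 (adjusted p = 0.0204) and kept its call in 3 of the 8 fits. It lost the call without the 3 arrays (-1.53 ± 0.34, adjusted p = 0.0606), where no gene of the list was called. Txnrd2, the mitochondrial thioredoxin reductase gene, rose by 0.64 ± 0.16 at the edge of the threshold (adjusted p = 0.0499), and was called in 2 of the 8 fits. Dhcr7, of the last step of cholesterol synthesis, read 0.53, -0.95, -0.84 and -0.97 in SHR, against 0.70, 1.61, 1.42 and 1.09 in untreated WKY, and was the 1 called gene of 20 (-1.77 ± 0.40, adjusted p = 0.0325). Its call was kept in 3 of the 8 fits and was lost without the 3 arrays (-1.82 ± 0.45, adjusted p = 0.101).

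Of the genes proposed for traits of SHR, Endog alone was called among 19 measured. Ephx2, the soluble epoxide hydrolase gene, averaged -1.27 ± 0.97 in SHR and -0.71 ± 0.63 in untreated WKY (adjusted p = 0.620). Ogn, the osteoglycin gene, averaged 5.10 ± 0.51 and Camk2n1, a CaM kinase inhibitor gene, 1.04 ± 0.29 in SHR, against 4.25 ± 0.58 for Ogn and 0.88 ± 0.51 for Camk2n1 in untreated WKY. Gstm1, a mu class glutathione transferase gene, differed by -0.30 ± 0.18 (adjusted p = 0.487) and Agtrap, which encodes an angiotensin receptor-associated protein, by -0.021 ± 0.15 (adjusted p = 0.969).

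Immune, adhesion and nerve genes gave 4 further calls. Cxcl9, a chemokine induced by interferon gamma, read -1.77, -2.92, -2.65 and -2.90 in SHR, against -1.52, -1.09, -1.71 and -1.29 in untreated WKY, and was the 1 called gene of 25 interferon genes (-1.16 ± 0.26, adjusted p = 0.0309). It kept its call without the 3 arrays of mesothelial signal (-1.42 ± 0.28, adjusted p = 0.0300), and in 4 of the 8 fits without 1 array. Selp, the P-selectin gene of endothelium and platelets, rose by 1.63 ± 0.36 (adjusted p = 0.0300), with -0.51, 0.22, 0.030 and -0.12 in SHR and -1.57, -2.11, -2.81 and -0.41 in untreated WKY, so that the groups overlapped through replicate 4. The Selp call was kept in 3 of the 8 fits and was lost without the 3 arrays (1.03 ± 0.34, adjusted p = 0.227).

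Prph and Gap43, which mark neurons and growing axons, were lower in SHR through 3 untreated WKY arrays. Prph read -1.63, -1.60, -1.23 and -1.40 in SHR, against 4.85, 1.57, 2.52 and -0.80 in untreated WKY, and Gap43 -2.55, -2.39, -2.20 and -1.89 in SHR, against 3.33, 0.22, 0.86 and -1.57 in untreated WKY. The 14 measured neuron markers had a median difference of -2.82, with 13 below 0. Their summed signal was 1.92 to 3.09 in SHR and 2.56 to 8.78 in untreated WKY. It was 2.20 to 2.87 in 1K1C, 2.34 to 5.71 in 2K1C and 2.33 to 3.27 in SHRSP. The calls of Prph and Gap43 were each kept in 1 of the 8 fits without an array. Both were lost without the 3 arrays, at -3.44 ± 1.18 for Prph (adjusted p = 0.256) and -3.04 ± 0.97 for Gap43 (adjusted p = 0.211). Exocrine pancreas markers were above 0 in 16 of 16 with a median of 1.84 and none called, and their summed signal was 3.06 to 5.16 in SHR and -0.44 to 5.28 in untreated WKY. Without the 3 arrays of mesothelial signal that median was 0.27. Mast cell markers were below 0 in 10 of 11 with none called, and their median was -1.19, with -1.08 without the 3 arrays.

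The number of calls depended on which arrays were kept. In the 8 fits without 1 array the count ran from 124 to 669, and 100 genes (0.609% of those tested), 47 higher and 53 lower, were called with all arrays and in each of the 8. Of these 100, SHR lay outside all 12 WKY arrays for 84. Without the 3 arrays of mesothelial signal 104 genes were called, 84 of them among the 303. A fit of the 8 arrays alone called 102 genes, of which 88 were among the 303. Array weights gave 7127 of the 16424 genes tested, a share so large that including all 303 says little. The weights were 4.83 and 3.59 on SHR replicates 2 and 3 and 0.328 and 0.413 on SHR replicates 1 and 4. On untreated WKY replicates 1 to 4 they were 0.275, 2.75, 2.23 and 0.494. The fit without the 3 arrays of mesothelial signal left out SHR replicate 1, of low weight. It also left out untreated WKY replicates 2 and 3, of higher weight, and kept replicates 1 and 4, of lower weight.

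**Figure D5:**
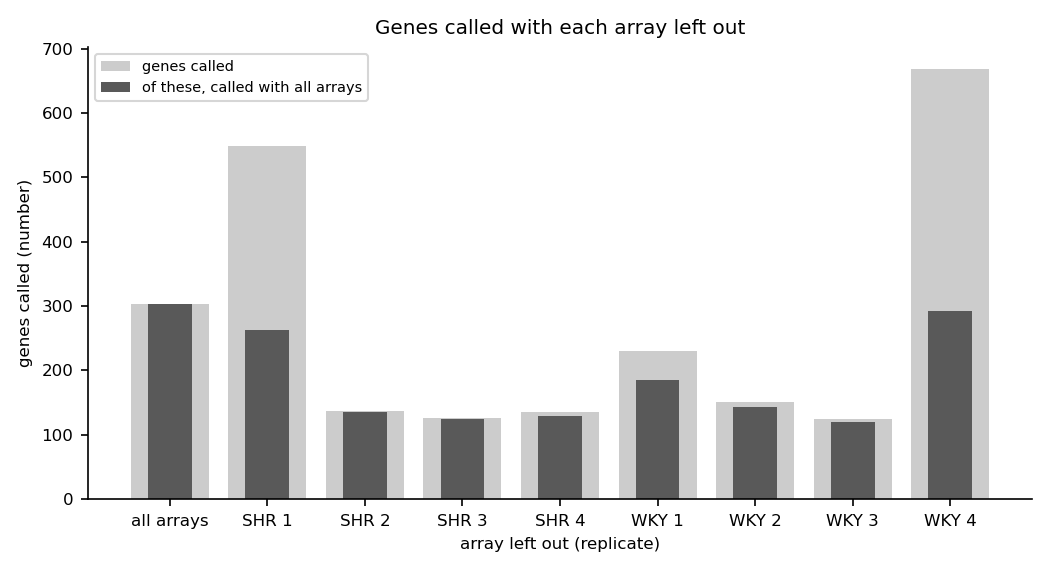
Genes called (light bars) and how many of them are among the 303 called with all arrays (dark bars), for all arrays and with each SHR or untreated WKY array left out. The count ranges from 124 without untreated WKY replicate 3 to 669 without untreated WKY replicate 4.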

How the data were processed

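The authors deposited 1 scanner table per array, whose processed signal is a linear, background-subtracted intensity per spot, per the file headers. The submitters' processing notes name Feature Extraction 10.7.3.1. The deposited value table held the same intensity (largest relative difference 0), uncentred and, being 1-colour, without direction. From these deposited intensities log2 values were computed and each array's 75th percentile, taken over spots that are not controls, was subtracted. Control spots (4259) and outlier-flagged spots were left out, and saturated spots numbered 0. Values were averaged per probe (30367 probes). A probe stayed if some group had it detected well above background in each of its 4 arrays (18899 probes), and the brightest one stood for its gene (16424 genes). RefSeq's rat gene table held an accession for 18355 probes (60.44%), which updated 2935 names, and 12012 probes kept the files' name.

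The 5 groups (20 arrays) entered 1 limma model (version 3.58.1, R 4.3.3; lmFit, eBayes; 15 residual and 2.57 prior degrees of freedom), two-sided, with Benjamini-Hochberg adjustment at 0.05. The procedure was tested on simulated data with independent noise for each gene and array. Deviations that many genes of an array share, as seen here, were not part of that test. The number of arrays limits the precision. Each p-value sets a difference against the spread within all 5 groups, which include groups outside this comparison. Same-numbered arrays of the groups did not vary together (correlation of deviations -0.372, -0.301, -0.216 and -0.0534), so the numbers were not taken as pairs. Whether same-numbered samples were handled together was not tested. The 24 gene lists and 13 marker lists are described by counts and medians, with no test of a list. Members and lists were chosen with earlier results of these data known. Genes were named by a rule: the 12 largest differences in each direction among genes with a gene symbol (not LOC, RGD or an accession) called in every fit with 1 array left out, with separate groups and the brighter group detected; up to 3 called members of each list, or the 1 with the largest difference; and a set of genes by name. Some genes that met the rule are not reported here. Genes outside it, Alb, Myh11 and Txnrd2 among them, were added after their values were seen. Alternatives are given in the closing section.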

Additional observations from a re-analysis of the deposited data

Results flagged for a closer look

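Among the named genes, 140 groups of 4 values were examined for an array whose gap to its nearest neighbour exceeded Dixon's critical value, and 15 had one, where chance gives about 1 in 20 groups. SHR replicate 1 was the outlying array in 10 of them. It was the lowest SHR array for Lmod1 (-1.19), a smooth muscle gene, Ednra (-2.62), Ddah1 (-0.0237), which degrades an inhibitor of nitric oxide synthase, Kcna5 (-3.57), Nfil3 (-0.942) and Ogn (4.33). It was the highest SHR array for Gstt3 (0.434), Dhcr7 (0.531), the macrophage gene C1qc (1.26) and Msln (3.27). Untreated WKY replicate 1 was the highest of its group for Hspa1b (1.90) and Gstm1 (0.0597) and the lowest for Agtrap (-0.344). Untreated WKY replicate 4 was the lowest for Endog (-0.215) and the highest for Acot3 (-3.13). All values are log2 levels relative to the array's 75th percentile.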

How the results depend on the processing

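The number called was 303 (137 higher, 166 lower in SHR). It lay within 1.5 times that count with quantile normalization, normexp, the deposited value table and no filter on dim probes. It did so too with detection in SHR or untreated WKY, the mean of a gene's probes and robust eBayes with trend. With the replicate block, also within that range, 285 genes were called, although same-numbered arrays did not vary together. Scaling to the array median moved the higher genes to 221. The 8 arrays alone gave 102 (49 higher, 53 lower), detection on all 20 arrays 186 (89 and 97), where fewer genes were tested, array weights 7127 (3350 and 3777), and leaving out the 3 arrays of mesothelial signal 104 (52 and 52). Leaving out 1 array gave 124 to 669 in all, 58 to 282 higher and 64 to 387 lower. Without SHR replicate 1 it was 548 and without replicates 2, 3 and 4 137, 126 and 136; without untreated WKY replicates 2, 3 and 4 it was 151, 124 and 669. Signs changed for genes that were not called: Edn1 was 0.0938 with quantile normalization, 0.016 with normexp, 0.0333 with the array median and 0.0702 from the deposited table, and -0.214 to 0.134 with an array left out. Agtrap was 0.0819 with the array median, -0.177 to 0.0496 with an array left out and 0.126 without the 3 arrays. Camk2n1 was -0.00255 with array weights. Without the 3 arrays Rgs1 was 0.330. The cause of these changes was not tested. Slide as a block was not run, because it leaves this contrast without an estimate. Signal over background limits the folds given as "at least".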
